A study of Homo sapiens with 21 samples.

Results

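The genes described are 10 markers and regulators of the epithelial-mesenchymal transition (EMT), taken by gene symbol from the table of raw counts, where they are 10 of 60651 human genes. They are the transcription factors ZEB1, ZEB2, SNAI1 and SNAI2, the mesenchymal genes VIM, CDH2 and FN1, and the epithelial genes CDH1, EPCAM and TJP1. Each of the 10 had at least 1 count in every tumor. RNA-seq covered 21 subcutaneous xenografts of A549-Luc2 cells, a luciferase-carrying derivative of the human lung adenocarcinoma line A549, grown in female athymic nu/nu mice aged 6 to 8 weeks. These mice lack T cells and supply the stroma and vessels of the tumor. Mice were randomized to 3 groups of 10, and 7 tumors of each group were sequenced. The control group received the oral formulation alone, and the Oxy186 and Oxy210 groups received one of these oxysterol derivatives in it, each at 50 mg/kg daily by gavage. The comparisons ask whether EMT genes differed in level between treated and control tumors, and between both compounds at the same dose.

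EMT is the program by which polarized epithelial cells loosen their junctions and take on a motile, fibroblast-like state. The ZEB and SNAI factors are zinc-finger repressors that bind E-box motifs in epithelial genes such as CDH1, which encodes E-cadherin, while vimentin (VIM), N-cadherin (CDH2) and fibronectin (FN1) are classical products of the mesenchymal state. Carcinoma lines often carry markers of both states at once, and WNT and TGF-β signals can induce the factors.

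Depth was similar in all groups, with 13787493 to 17865119 counts in all in a tumor. Each tumor was taken as 1 replicate, since no 2 tumors of a group agreed within counting noise (chi-square of 10.9 or more for each degree of freedom). The 12 A549 marker genes, led by ALDH1A1 and AKR1B10, were all detected and summed to between 19503 and 37122 CPM (counts scaled to the library size) in a tumor. Lung lineage markers summed to between 9.63 and 38.2 CPM, and NKX2-1, the defining factor of alveolar and airway epithelium, had at most 2 counts in a tumor. Stroma markers counted on the human genome summed to between 132 and 246 CPM in control tumors, between 123 and 282 CPM in Oxy186-treated samples and between 93.4 and 172 CPM in Oxy210-treated samples. In each of these groups 12 of the 20 stroma genes had a mean under 1 CPM and 2 were at 0, among them POSTN in every tumor. Libraries also differed in how counts varied with the GC content of genes. The GC slope, the change in log2 CPM per 10 percentage points of exon GC relative to the mean of all libraries, was below 0 in each of Oxy186-treated samples r1-r4 (-0.51 to -0.18) and above 0 in each of r5-r7 (0.079 to 0.49). Control tumors (-0.15 to 0.40) and Oxy210-treated samples (-0.33 to 0.26) had slopes of both signs, but each of r1-r4 was below every control tumor. In r1-r4 against control, a group difference along GC content and a library effect therefore cannot be told apart. Correction for the GC trend takes out both. Samples r1-r4 were chosen for further analysis from a principal component plot of these same libraries, so p-values for r1-r4 do not allow for that choice.

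The 10 genes spanned a wide range of levels, with structural and adhesion genes high and the transcription factors low. Levels between genes are given per length, as CPM per kilobase of exon. In the control group VIM, an intermediate filament protein, was the highest at 168 ± 20.2 CPM per kilobase (SD, n = 7). EPCAM, an adhesion molecule of epithelial surfaces, followed at 71.1 ± 11.9 (SD, n = 7) and FN1, a matrix glycoprotein, at 54.4 ± 11.7 (SD, n = 7), and the ranges of these 2 genes overlapped. CDH1 had 27.0 ± 2.91 (SD, n = 7), TJP1 17.3 ± 2.85 (SD, n = 7) and CDH2 6.87 ± 2.15 (SD, n = 7) CPM per kilobase. TJP1 encodes the tight junction scaffold ZO-1. The E-cadherin gene was thus higher than the N-cadherin gene in every control tumor, from 23.5 to 30.7 against 4.13 to 10.5 CPM per kilobase. Among the factors, ZEB1 had 2.11 ± 0.525 (SD, n = 7), SNAI1 0.949 ± 0.436 (SD, n = 7), SNAI2 0.169 ± 0.0717 (SD, n = 7) and ZEB2 0.0476 ± 0.0229 (SD, n = 7) CPM per kilobase. The control ranges of ZEB1 and SNAI1 overlapped, as did those of SNAI2 and ZEB2. Except for these pairs and EPCAM with FN1, neighbours in this order were apart in the control tumors. The order in the control group was the same when the longest transcript was used as the length.

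**Figure D1:**
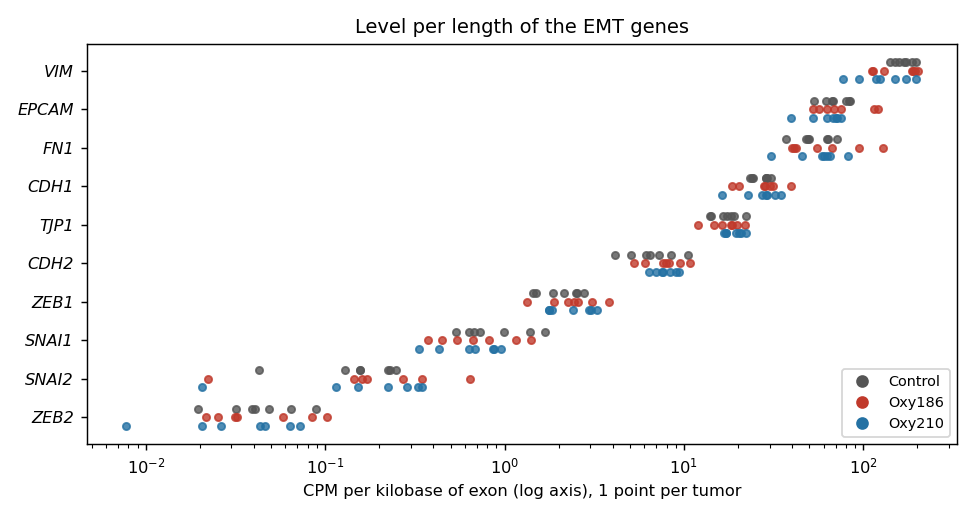
Level of each EMT gene in CPM per kilobase of exon on a log axis, with 1 point per tumor and 1 color per group. Genes are ordered by their mean in the control group, from VIM at 168 to ZEB2 at 0.0476 CPM per kilobase, and the points of the 3 groups overlap for every gene.

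ZEB1 and TJP1 were the pair whose levels varied together between tumors, as described further on, and the sequences before their most upstream annotated starts are shown for that reason. Both are RefSeq windows of 250 bases on GRCh38.p14, 5′ to 3′ on the strand of the gene, and capitals mark CAGGTG, an E-box of the kind that ZEB and SNAI factors are known to bind. The ZEB1 window lies at chr10:31318167-31318416 on the plus strand and the TJP1 window at chr15:29969050-29969299 on the minus strand.
ZEB1: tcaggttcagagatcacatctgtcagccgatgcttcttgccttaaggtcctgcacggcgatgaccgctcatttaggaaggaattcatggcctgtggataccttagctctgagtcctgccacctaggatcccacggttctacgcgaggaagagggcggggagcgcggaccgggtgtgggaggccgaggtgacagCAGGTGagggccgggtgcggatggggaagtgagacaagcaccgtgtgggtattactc
TJP1: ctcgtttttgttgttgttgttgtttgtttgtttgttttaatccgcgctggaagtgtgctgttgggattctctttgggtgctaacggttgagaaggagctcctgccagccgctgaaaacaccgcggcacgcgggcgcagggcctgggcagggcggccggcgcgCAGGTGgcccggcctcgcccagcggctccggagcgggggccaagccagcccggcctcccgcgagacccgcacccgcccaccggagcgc
Counted back from the base after the window, the motif began at position -57 for ZEB1 and at -88 for TJP1. It was searched on both strands, where it reads CAGGTG or CACCTG, and 17.5% of the 35116 windows of that length in the table held it. GC content was 59.2% in the ZEB1 window and 66.8% in the TJP1 window, against a median of 58% over all windows. ZEB1 has 7 such windows for its alternative starts, of which 2 held the motif, and TJP1 has 4, of which 1 held it. The windows of ZEB2, VIM, CDH2 and FN1 held none. A match is a description of these letters and not evidence of binding.

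The EMT transcription factors overlapped between the groups in every case. ZEB1 lay at 3.65, 4.23 and 4.60 log2 CPM in the lowest, median and highest control tumor, at 3.54, 4.40 and 5.05 in the Oxy186 group and at 3.95, 4.38 and 4.83 in the Oxy210 group. SNAI1, also known as Snail, had a median of 19 counts in control tumors (13 to 43), of 16 in Oxy186-treated samples (9 to 35) and of 19 in Oxy210-treated samples (9 to 24). SNAI2, also known as Slug, had a median of 9 counts in control tumors (2 to 12), of 8 in Oxy186-treated samples (1 to 35) and of 12 in Oxy210-treated samples (1 to 17). Counting noise is a larger part of the value at such low counts than in the other members, and its part in the spread between tumors was not measured. ZEB2 was as sparse, with a median of 15 counts in control tumors (9 to 37), of 12 in the Oxy186 group (8 to 42) and of 18 in the Oxy210 group (3 to 28).

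The mesenchymal genes also overlapped between the groups. VIM lay at 9.51, 9.76 and 10.00 log2 CPM in the lowest, median and highest control tumor, at 9.18, 9.92 and 10.03 in the Oxy186 group and at 8.64, 9.32 and 9.99 in the Oxy210 group. Within the Oxy186 group, r1-r4 sat between 9.92 and 10.03 and r5-r7 between 9.18 and 9.39, so the ranges of these VIM values were apart. FN1 lay at 9.31, 9.74 and 10.25 log2 CPM in the lowest, median and highest control tumor, at 9.43, 9.89 and 11.11 in the Oxy186 group and at 9.05, 10.02 and 10.46 in the Oxy210 group. The FN1 values of r5-r7 (9.51, 9.48 and 9.43) were all under those of r1-r4 (11.11, 9.89, 10.17 and 10.68). The same held for SNAI2 (r1-r4 from -0.52 up, r5-r7 up to -0.60 log2 CPM) and for the epithelial gene TJP1 (r1-r4 from 7.69 up, r5-r7 up to 7.52). After removal of each library's GC trend r1-r4 and r5-r7 remained apart for VIM and FN1 and overlapped for SNAI2 and TJP1. Since r1-r4 were selected on the same libraries, these splits within the Oxy186 group are a description and were not tested. How many of all genes split in this way was not counted, so the splits cannot be read as particular to EMT genes. CDH2 lay at 5.15, 5.80 and 6.50 log2 CPM in the lowest, median and highest control tumor, at 5.51, 6.10 and 6.54 in the Oxy186 group and at 5.78, 6.03 and 6.33 in the Oxy210 group.

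The epithelial genes held similar medians in all 3 groups. CDH1 lay at 7.16, 7.44 and 7.54 log2 CPM in the lowest, median and highest control tumor, at 6.82, 7.42 and 7.91 in the Oxy186 group and at 6.64, 7.44 and 7.72 in the Oxy210 group. EPCAM lay at 7.02, 7.37 and 7.69 in the control group, at 7.00, 7.39 and 8.19 in the Oxy186 group and at 6.60, 7.37 and 7.51 in the Oxy210 group. TJP1 lay at 7.31, 7.61 and 7.97 in the control group, at 7.09, 7.69 and 7.95 in the Oxy186 group and at 7.56, 7.79 and 7.98 in the Oxy210 group. For both CDH1 and EPCAM, Oxy210-treated sample 4 was the lowest tumor of its group. The mesenchymal to epithelial balance, taken as VIM minus CDH1 in log2 CPM, was 2.41 ± 0.28 (SD, n = 7) in the control group, 2.29 ± 0.24 (SD, n = 7) in the Oxy186 group and 2.02 ± 0.63 (SD, n = 7) in the Oxy210 group. The same difference for CDH2 minus CDH1, the cadherin switch, was -1.52 ± 0.52, -1.31 ± 0.50 and -1.27 ± 0.44 (SD, n = 7 each), and these balances overlapped between groups.

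**Figure D2:**
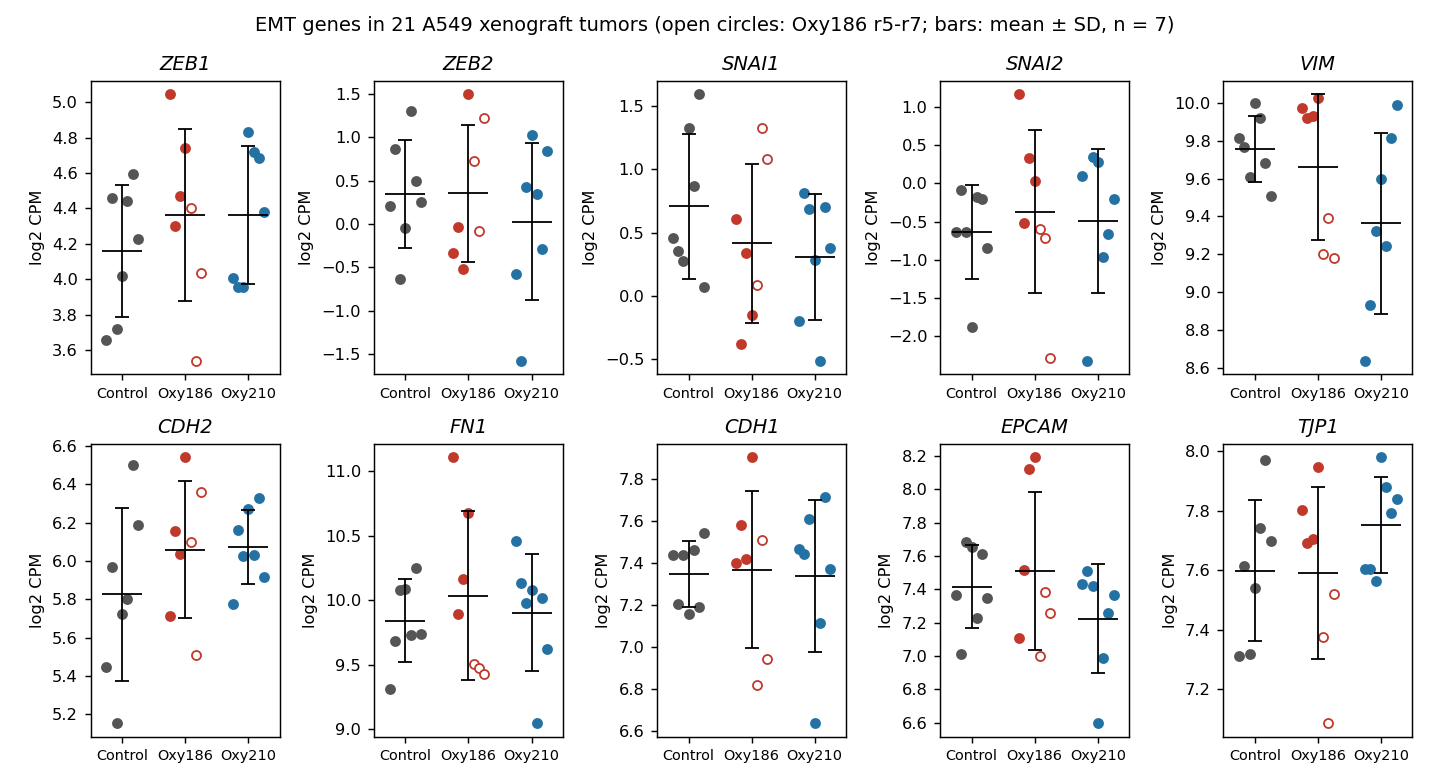
Log2 CPM of each EMT gene in 21 tumors, with points for single tumors and bars for the mean ± SD of each group (n = 7). Open circles mark Oxy186-treated samples r5-r7, whose SNAI2, VIM, FN1 and TJP1 values lie under those of r1-r4. Such splits were not counted over all genes, and the groups overlap in all 10 panels.

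Of the 10 EMT genes, only FN1 passed the test of r1-r4 against the control tumors, and it was higher. A gene was called where edgeR's quasi-likelihood F-test, adjusted over all genes by the method of Benjamini and Hochberg, gave an adjusted p of no more than 0.05. Over the 16852 genes tested, 4.73% were called higher and 15% lower, so 1 higher and 0 lower of 10 stands against those shares. FN1 was 1.58-fold higher (95% interval 1.15 to 2.19), or 0.66 ± 0.22 in log2 fold change (± SE, adjusted p = 0.045 by edgeR). All 4 FN1 values were above the control median and 2 were above every control tumor. The highest value was that of r1, with 36602 FN1 counts, and the call did not hold without it. Without r1 the log2 fold change was 0.41 (adjusted p = 0.183, edgeR), without r4 it was 0.66 (adjusted p = 0.0959), and leaving out any 1 of control tumors 1, 2, 3, 5 and 7 also ended the call (log2 fold change 0.59 to 0.70, adjusted p from 0.0594 to 0.084). Limma voom, the tool of the study, gave FN1 an adjusted p of 0.0635. The members' median log2 fold change was 0.24, against 0.01 over all genes tested, and 8 of the 10 were above 0. Genes of low GC content were shifted upward as well, as given below with the GC content of the members.

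The factors had log2 fold changes of both signs in r1-r4, none of which passed the test. ZEB1 was at 5.05, 4.30, 4.47 and 4.74 log2 CPM in r1 to r4, each above the control median of 4.23. Its log2 fold change was 0.47 ± 0.20 (SE, adjusted p = 0.108 by edgeR). SNAI2 had 35, 8, 16 and 14 counts with a log2 fold change of 1.07 ± 0.43 (SE, adjusted p = 0.0858 by edgeR), which was 0.62 without r1 and 1.30 without r2. SNAI1 had 23, 9, 16 and 12 counts, below the control median in 3 of 4 samples, with a log2 fold change of -0.72 ± 0.38 (SE, adjusted p = 0.19 by edgeR). For ZEB2 the log2 fold change was -0.06 with a 95% interval from -1.06 to 0.93. Among the mesenchymal genes, VIM had a log2 fold change of 0.19 (95% interval -0.08 to 0.47) and CDH2 of 0.25 (95% interval -0.21 to 0.72). The epithelial genes also had positive values, 0.23 for CDH1 (95% interval -0.05 to 0.51), 0.36 for EPCAM (95% interval -0.05 to 0.77) and 0.17 for TJP1 (95% interval -0.12 to 0.46). EPCAM reached an adjusted p of 0.0481 (edgeR) when r1, its lowest sample among r1-r4, was left out, with a log2 fold change of 0.54. As these are bulk samples, fewer cells of a type and less RNA per cell cannot be told apart.

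**Figure D3:**
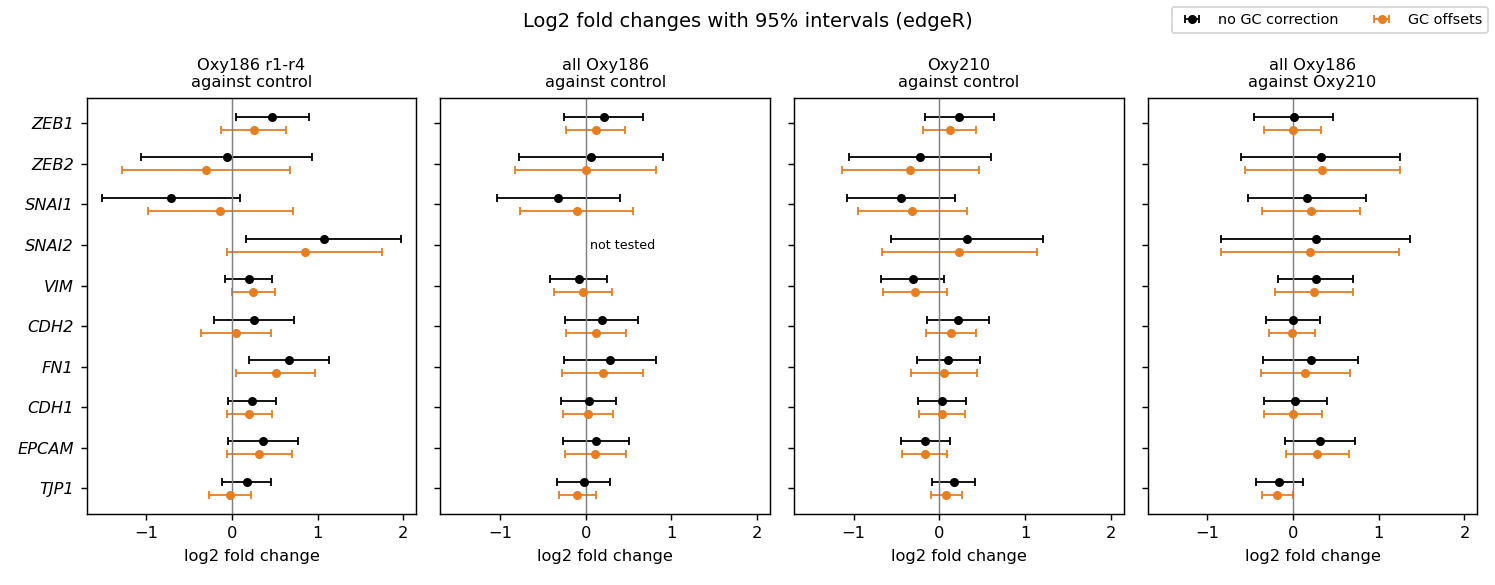
Log2 fold change of each EMT gene in the 4 comparisons with its 95% interval, in black as tested and in orange with GC offsets. FN1 in r1-r4 against control (0.66, and 0.51 with GC offsets) and SNAI2 in the same comparison (1.07 and 0.85) lie farthest above 0, and SNAI2 was not tested between all Oxy186-treated and control samples.

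Fold changes of r1-r4 against control followed the GC content of genes across the whole table. The median log2 fold change was 0.28 in the 1682 genes of lowest exon GC, 1 of 10 parts of the table, and -1.08 in the part of highest GC. In the parts that follow the lowest, from 38.5% up to 45.1% GC, it was 0.25, 0.23 and 0.18. The EMT genes lie at different places on this trend. ZEB2 (40.6%), SNAI2 (41.1%), ZEB1 (41.3%), CDH2 (41.7%), TJP1 (43.0%) and FN1 (44.4%) are GC-poor, EPCAM (48.1%), CDH1 (48.5%) and VIM (50.3%) are near the middle, and SNAI1 (58.4%) is GC-rich. With offsets for the GC trend of each library, 1.79% of all genes were called higher and 2.26% lower, and 0 of the 10 EMT genes were called. The members' median log2 fold change was then 0.23, against 0.01 over all genes, and 7 of the 10 were above 0. 2 of the 10, FN1 and VIM, had an unadjusted p under 0.05 in that edgeR fit, as did 3157 of all 16852 genes tested. FN1 then had a log2 fold change of 0.51 ± 0.22 (SE, adjusted p = 0.221 by edgeR) and SNAI1 of -0.13 ± 0.39 (SE, adjusted p = 0.902 by edgeR). The value for ZEB1 fell from 0.47 to 0.25 and that for TJP1 from 0.17 to -0.02. By contrast VIM, near the middle of the GC range, went from 0.19 to 0.25 (adjusted p = 0.263 by edgeR). In DESeq2, without GC offsets, FN1 had an adjusted p of 0.0167.

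**Figure D4:**
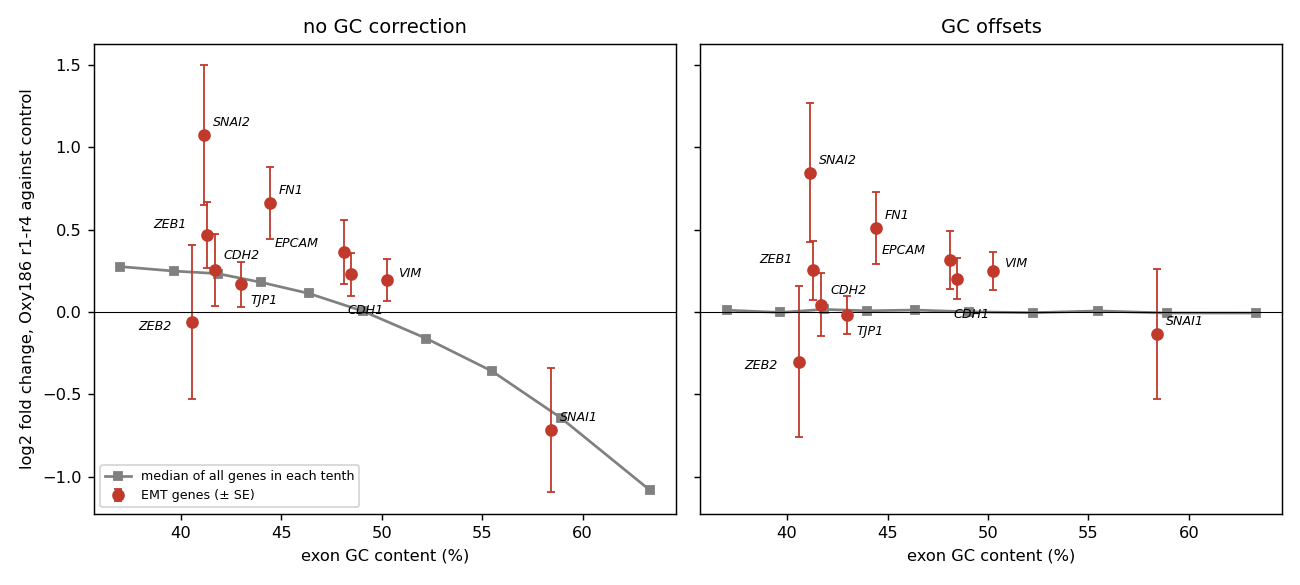
Log2 fold change of r1-r4 against control plotted over exon GC content, without GC correction on the left and with GC offsets on the right, for the EMT genes (red points, ± SE) and for the median gene in each of 10 parts of the table by GC content (grey squares). On the left SNAI1 lies on the falling grey line, which drops from 0.28 to -1.08, and on the right the grey line is flat and SNAI1 is at -0.13.

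With all 7 sequenced samples of the randomized Oxy186 group, none of the 9 EMT genes tested passed against the control group. In this comparison 0% of 16291 genes were called with or without GC offsets (edgeR), 618 had an unadjusted p under 0.05 without them and 963 with them, and limma voom and DESeq2 also called 0. SNAI2 did not pass the filter on low counts. The log2 fold changes ran from -0.32 for SNAI1 (95% interval -1.04 to 0.41) to 0.29 for FN1 (95% interval -0.25 to 0.82), and the smallest adjusted p among the members was 0.862 (edgeR). For ZEB1 the log2 fold change was 0.21 (95% interval -0.25 to 0.67), for VIM -0.08 (95% interval -0.41 to 0.25), for CDH1 0.03 (95% interval -0.28 to 0.35) and for TJP1 -0.02 (95% interval -0.33 to 0.29). Single tumors lay outside the control range on both sides, as for VIM, with 1 of 7 samples above and 3 of 7 below every control tumor, and for CDH1, with 2 above and 2 below.

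Oxy210-treated samples did not differ from the control group in any of the 10 EMT genes by the test. In edgeR 0% of 16396 genes were called with or without GC offsets, while 2270 had an unadjusted p under 0.05 without them and 2357 with them. Limma voom called 0 and DESeq2 92, none of them a member. None of the 10 members had an unadjusted p under 0.05. VIM came nearest, at a log2 fold change of -0.31 ± 0.17 (SE, 95% interval -0.67 to 0.05, adjusted p = 0.411 by edgeR), and 4 of 7 Oxy210-treated samples lay below every control tumor. Beside it the antisense gene VIM-AS1 was at -0.67 on the same scale, which did not pass either (edgeR, adjusted p = 0.295). SNAI1 had a log2 fold change of -0.45 (95% interval -1.08 to 0.18) and EPCAM of -0.16 (95% interval -0.44 to 0.12). ZEB1 was at 0.23 (95% interval -0.17 to 0.64), TJP1 at 0.17 (95% interval -0.09 to 0.42) and CDH2 at 0.22 (95% interval -0.14 to 0.58). Stroma markers had 6 of 9 tested genes below 0 in this comparison, with a median log2 fold change of -0.50 against 0.01 over all genes and 0 called by edgeR (4 at an unadjusted p under 0.05), and their part in the values of VIM was not tested. The comparisons of Oxy186 and Oxy210 with the control group share the same 7 control tumors, so values on the same side of 0 in both are not independent.

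Between the 2 compounds, compared directly at 50 mg/kg in 1 contrast of 7 against 7 tumors, none of the 10 EMT genes passed the test. By edgeR 0% of 16361 genes were called, 664 had an unadjusted p under 0.05, limma voom called 0 and DESeq2 14. With GC offsets 1 gene was called higher in the Oxy186 group (0.00611%) and it was not an EMT gene, 0% were called lower and 1329 genes had an unadjusted p under 0.05. All 10 members had an adjusted p of 0.9996 in edgeR without offsets, and DESeq2 called none of them. The interval of the difference was narrowest for TJP1, with a log2 fold change of -0.16 (95% interval -0.44 to 0.12), and CDH2, at 0.00 with an interval from -0.31 to 0.31. It was from -0.45 to 0.47 for ZEB1, from -0.18 to 0.70 for VIM, from -0.35 to 0.76 for FN1, from -0.34 to 0.40 for CDH1 and from -0.09 to 0.73 for EPCAM. For the sparse factors it was wide, from -0.52 to 0.85 for SNAI1, from -0.61 to 1.25 for ZEB2 and from -0.84 to 1.36 for SNAI2, so a level up to 1.80-fold higher for SNAI1, 2.38-fold for ZEB2 and 2.57-fold for SNAI2 in the Oxy186 group was within the interval.

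Across the 21 tumors, the repressor gene ZEB1 and the junction gene TJP1 rose and fell together more closely than any other pair of the 10 EMT genes. With each gene centered on its group mean, Pearson's r was 0.884 and Spearman's rho 0.891 (n = 21), both with p = 1e-05 by permutation, which is the lowest value possible with 100000 shuffles within groups, and an adjusted p of 0.00045 over the 45 pairs. The relation held within each group of 7, with r of 0.930 in control, 0.852 in Oxy186-treated and 0.945 in Oxy210-treated samples. Without the 2 tumors farthest from the median of ZEB1 it was 0.851, and without the Oxy186 group it was 0.917. Both genes are GC-poor and both followed the GC slope of the library, with r of -0.81 and rho of -0.79 for ZEB1 (permutation test, adjusted p = 0.00025 and 0.0004 over the 10 genes) and r of -0.86 and rho of -0.85 for TJP1 (adjusted p = 0.0001 and 0.0003). Without the 2 tumors of most extreme slope these r were -0.80 and -0.84, and within the control, Oxy186 and Oxy210 groups they were -0.76, -0.83 and -0.88 for ZEB1 and -0.79, -0.92 and -0.86 for TJP1. Pooled over the groups, the GC slope was not tied in this way to any of the other 8 genes by the test. VIM and CDH2 came nearest at an r of -0.51 and -0.49 (permutation test, adjusted p = 0.0804 for both). The pooled r can hide opposite signs. Within the control, Oxy186 and Oxy210 groups r with the slope was -0.29, -0.75 and 0.72 for FN1. It was 0.24, -0.63 and 0.61 for EPCAM and 0.38, -0.83 and -0.45 for VIM, and these values within groups were not tested. After removal of each library's GC trend, r between ZEB1 and TJP1 was 0.791 (permutation test, adjusted p = 0.0009), with 0.899, 0.680 and 0.869 in the control, Oxy186 and Oxy210 groups. Among 16989 other genes ranked by r with ZEB1 after that removal, TJP1 was number 60, and ZEB1 was number 22 for TJP1, so neither is the closest match of the other.

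**Figure D5:**
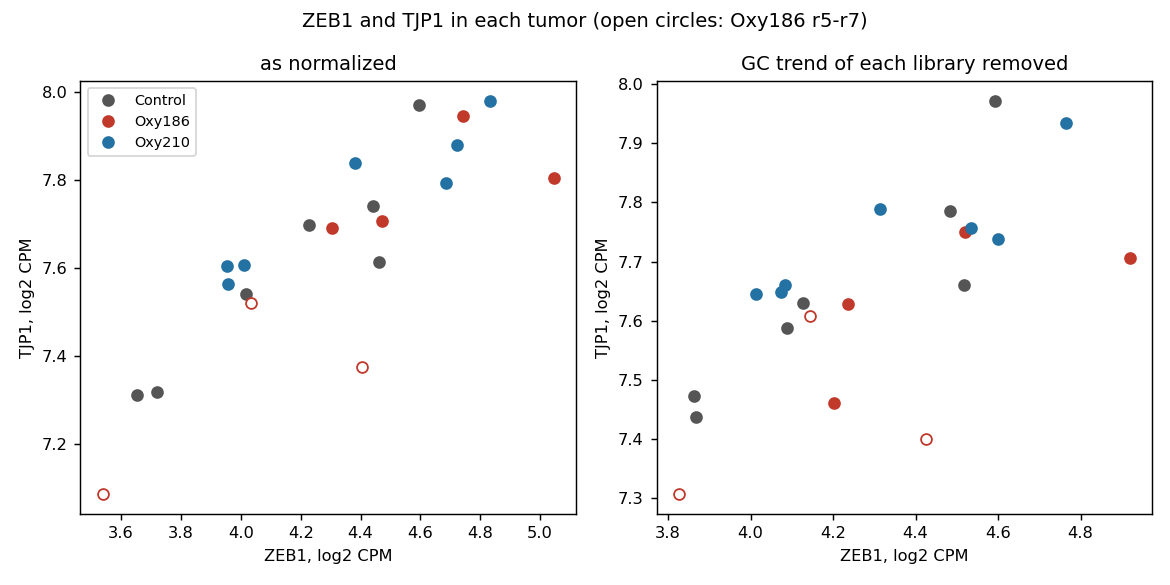
Log2 CPM of TJP1 plotted over that of ZEB1 in each of the 21 tumors, as normalized on the left and after removal of each library's GC trend on the right, with 1 color per group and open circles for Oxy186-treated samples r5-r7. Points of all 3 groups run from low to high in both genes, with r of 0.884 on the left and 0.791 on the right after centering on group means.

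Of the other 44 pairs, CDH2 and TJP1 had an r of 0.688 (permutation test, adjusted p = 0.0477), which did not pass by Spearman's rho of 0.553 (adjusted p = 0.219) or after removal of the GC trend, where r was 0.543 (adjusted p = 0.263). Before that removal, r without the 2 tumors farthest from the median of CDH2 was 0.577, and it was 0.926 in the control group but 0.397 in the Oxy210 group, and the difference between groups was not tested. The epithelial pair CDH1 and EPCAM had an r of 0.656 (permutation test, adjusted p = 0.0834), with -0.148 in the control group, 0.71 in the Oxy186 group and 0.877 in the Oxy210 group. No pair of a factor with CDH1, the classical target of these repressors, passed the test in either direction. SNAI1, SNAI2 and ZEB2 had at most 43 counts in a tumor, so counting noise limits what their pairs can show. The r of ZEB1 with CDH1 was -0.167 and that of ZEB2 with CDH1 was -0.271, with adjusted p of 0.785 and 0.654 (permutation test, n = 21). SNAI1 with CDH1 had an r of -0.115 and SNAI2 with CDH1 of 0.174. These pooled values mixed groups that differed. Within the control, Oxy186 and Oxy210 groups r with CDH1 was -0.352, 0.198 and -0.575 for ZEB1 and -0.058, -0.095 and -0.505 for ZEB2. In the same order it was -0.694, -0.309 and 0.406 for SNAI1 and 0.178, 0.480 and -0.184 for SNAI2. The most negative pair was ZEB2 with EPCAM, at -0.322 (permutation test, adjusted p = 0.512), while after removal of the GC trend it was ZEB1 with EPCAM, at -0.374 (adjusted p = 0.451). Before that removal, r with EPCAM in the control, Oxy186 and Oxy210 groups was -0.751, 0.072 and -0.621 for ZEB2. For ZEB1 it was -0.395, 0.156 and -0.836. None of these differences between groups was tested.

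The gene most like each member over the 21 tumors, by Pearson's r after centering on group means and removal of the GC trend among 16989 genes, is given as a description. For ZEB1 it was FNDC3B (r = 0.922), for ZEB2 EFEMP1 (0.825), for SNAI1 PRDM1 (0.806) and for SNAI2 AL049840.6 (0.807). For VIM it was SIAH1 (0.918), for CDH2 DENND2B (0.831) and for FN1 NPR3 (0.901). The epithelial genes had C1orf115 for CDH1 (0.896), SPINT1 for EPCAM (0.925) and GLI2 for TJP1 (0.890). SPINT1, an inhibitor of membrane serine proteases, is itself a marker of epithelial surfaces.

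Other genes of the pathway, from lists of junction, matrix and regulatory genes, were counted in the same fit. In r1-r4 against control, the tight junction and polarity genes had 1 of 21 tested called higher and 7 lower, beside the 4.73% and 15% of all genes, with a median log2 fold change of -0.03 against 0.01 over all genes. The lower ones were led by CRB3, a Crumbs polarity protein, with a log2 fold change of -2.18 (adjusted p = 0.000474 by edgeR), and CLDN4, a claudin, at -1.12 (adjusted p = 0.00095). The higher one was PRKCI, the atypical protein kinase C of the polarity complex, at 0.46 (adjusted p = 0.0121). With GC offsets CRB3, at -1.31 (adjusted p = 0.00329 by edgeR), and CLDN4, at -0.62 (adjusted p = 0.0158), were the 2 of 21 in this list still called lower, beside 2.26% of all genes, and PRKCI was at 0.20. Desmosome and epithelial surface genes had 0 of 17 higher and 4 lower, with a median of -0.22. Among them SPINT2, a serine protease inhibitor, was at -0.99 (adjusted p = 0.000737 by edgeR) and at -0.57 with GC offsets (adjusted p = 0.0209). Adherens junction genes had 0 of 11 higher and 2 lower (median -0.05), led by NECTIN1, an adhesion receptor, at -1.26 (adjusted p = 0.0026 by edgeR) and at -0.60 with GC offsets (adjusted p = 0.148).

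Over all these lists 3 of 138 tested genes were called higher and 21 lower in r1-r4, which is near the share of all genes called lower (15%). Of the mesenchymal lists, cytoskeletal and surface genes had 1 of 18 higher and 3 lower, with a median log2 fold change of -0.17, and 1 higher and 0 lower with GC offsets. TPM1, a tropomyosin, was higher at 0.50 (adjusted p = 0.0461 by edgeR), and FSCN1, which bundles actin, was lower at -1.32 (adjusted p = 0.0018). FSCN1 was at -0.04 with GC offsets and TPM1 at 0.40 (adjusted p = 0.163). The call of TPM1 was also lost when any 1 of r2, r3, r4 or control tumors 1, 2, 3 and 5 was left out (log2 fold change 0.45 to 0.56, adjusted p from 0.0519 to 0.126). Matrix and protease genes had 0 of 23 higher and 2 lower (median -0.07), and 0 in either direction with GC offsets. The lower ones were led by MMP14, a membrane-bound matrix protease, at -1.12 (adjusted p = 0.00508 by edgeR) and -0.46 with GC offsets (adjusted p = 0.307). Other EMT factors had 0 of 20 higher and 1 lower (median -0.16), TCF3, an E protein that binds E-boxes, at -0.66 (adjusted p = 0.0195 by edgeR), and its sign turned with GC offsets, to 0.31 (adjusted p = 0.232). Epithelial regulators had 0 of 8 higher and 1 lower (median -0.05), ELF3, an epithelial ETS factor, at -0.64 (adjusted p = 0.01 by edgeR) and -0.35 with GC offsets (adjusted p = 0.137). The inducing ligands and receptors had 0 of 17 higher and 1 lower (median 0.13), NOTCH1 at -0.85 (adjusted p = 0.0228 by edgeR), which was at 0.15 with GC offsets. The calls of ELF3, TCF3 and NOTCH1 were each lost on leaving out single tumors, as ELF3 was at -0.53 without r4 (adjusted p = 0.0604 by edgeR), TCF3 at -0.52 without r3 (adjusted p = 0.0752) and NOTCH1 at -0.76, -0.69 and -0.80 without r1, r3 or r4 (adjusted p = 0.0637, 0.0862 and 0.0693).

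ZEB1-AS1, an antisense RNA that starts beside ZEB1, was called higher in r1-r4 with a log2 fold change of 0.49 (adjusted p = 0.0389 by edgeR) and was at 0.43 with GC offsets (adjusted p = 0.116). Leaving out any 1 of r1, r3, r4 or control tumors 1, 2, 3, 5 and 7 ended this call (log2 fold change 0.42 to 0.53, adjusted p from 0.0517 to 0.125). It was the 1 called gene of 3 tested among antisense and neighboring genes of the members. No source used here says whether reads were counted by strand, and 4.58% of the exon length of ZEB1 and 24.6% of that of VIM overlap exons on the other strand, so reads of these genes and their partners cannot be told apart there. With GC offsets 3 list genes were called that had not been called without them, and they are named after their values were seen. All calls in that fit came to 1.79% of genes higher and 2.26% lower. EVPL, an envoplakin of desmosomes, was at 0.87 (adjusted p = 0.00329 by edgeR), TPM2 at 0.45 (adjusted p = 0.0498) and YAP1, the Hippo pathway coactivator, at -0.50 (adjusted p = 0.0408). Marker lists had 0 genes called by edgeR in r1-r4, of 10 tested for stroma, 12 for A549 and 5 for lung lineage. The markers with the smallest p were COL1A1 at -0.52 (adjusted p = 0.126 by edgeR), KRT8 at -0.44 (adjusted p = 0.148) and FOXJ1 at -1.49 (adjusted p = 0.0722, and 0.0206 at -2.35 without r3 or 0.0433 at -1.63 without control tumor 7), and their part in the result was not tested. FOXJ1 was also called by DESeq2 (-1.46, adjusted p = 0.0239) and by edgeR without a filter (-1.51, 0.00953) or with replicate numbers as a block (-1.92, 0.00985). With GC offsets FOXJ1 was at 0.028 (adjusted p = 0.986 by edgeR).

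In the other 3 comparisons 0 genes of these pathway lists were called by edgeR. Over all Oxy186-treated samples 11 of 137 tested had an unadjusted p under 0.05, beside 618 of 16291 over all genes. In the Oxy210 group it was 20 of 137, beside 2270 of 16396. Between the compounds it was 2 of 136, beside 664 of 16361. CLDN3, a claudin, had the smallest p of the tight junction genes in both comparisons with control, with a log2 fold change of -1.14 (adjusted p = 0.862 by edgeR) over all Oxy186-treated samples and of -1.22 (adjusted p = 0.212) in the Oxy210 group. MMP9, a secreted matrix protease, was at -0.95 (adjusted p = 0.862) and -1.01 (adjusted p = 0.247) in the same comparisons. S100A4, a calcium-binding protein of mesenchymal cells, was at -0.76 (adjusted p = 0.212 by edgeR) in the Oxy210 group, and FOSL1, an AP-1 subunit, at -0.77 (adjusted p = 0.246). Of the genes named by rule, DESeq2 called CLDN3 and S100A4 lower in the Oxy210 group.

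Per length, genes of the lists are given beside the members for the control group. S100A4 was at 728 ± 216 CPM per kilobase (SD, n = 7), above VIM, and ID1, an inhibitor of helix-loop-helix factors, at 131 ± 47.9 (SD, n = 7). Of the junction genes, JUP, the plakoglobin gene, was at 113 ± 30.0 (SD, n = 7) and CTNNA1, α-catenin, at 65.6 ± 4.28 (SD, n = 7), both above CDH1. The highest claudins were CLDN2 at 36.8 ± 12.6 and CLDN1 at 33.6 ± 6.70 CPM per kilobase (SD, n = 7). LAMB3, a chain of the basement membrane protein laminin, was at 78.3 ± 17.9 and TGFBI, a matrix protein induced by TGF-β, at 80.6 ± 37.6 (SD, n = 7). The TGF-β receptor gene TGFBR1 was at 48.5 ± 15.2 and MET, the receptor of hepatocyte growth factor, at 34.1 ± 5.08 (SD, n = 7). KLF5, an epithelial zinc-finger factor, was at 61.2 ± 7.28 CPM per kilobase (SD, n = 7), which is above each of the 4 EMT factors.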

How the data were processed

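RNA-seq was analysed for 21 A549-Luc2 xenografts, 7 each from the control, Oxy186 and Oxy210 groups, and groups and replicate numbers came from the sample labels. For the deposited raw counts, the authors trimmed reads with Trimmomatic 0.39, aligned them with STAR 2.7.6a to a combined human (GRCh38.p13) and mouse (GRCm39) genome and counted uniquely mapped reads on human genes with featureCounts of Subread 2.0.1, and the strand setting is not given in the sources used here. The deposited log2 CPM values, for control and Oxy186-treated samples r1-r4, were made by the authors in edgeR (filterByExpr, then TMM). Log2 CPM recomputed here (prior count 2) differed from them by at most 4.97e-14 over 16852 genes, which was checked before any test. The 10 members and all gene lists were chosen with earlier results of these data known.

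Counts were tested with edgeR 4.0.16 (quasi-likelihood test, filterByExpr, TMM) in R 4.3.3, without covariates, over all genes, with calls where the adjusted p (Benjamini-Hochberg) was no more than 0.05. The study tested with limma voom. The control group was compared with r1-r4, with all 7 Oxy186 tumors and with the Oxy210 tumors, and the treated groups with each other. Tumors are separate animals, so the tests weigh each group difference against the variation between tumors. For r1-r4 that variation is the one within a chosen subset and not within the randomized Oxy186 group. Exon GC content, length and overlaps came from GENCODE annotation on GRCh38, which gave a GC value to 99.8% of the genes tested, and promoter windows from RefSeq (GRCh38.p14), which matched 6 of the 10 members. GC trends were splines with 4 degrees of freedom per library over genes whose mean log2 CPM reached 1. Correlations used 100000 permutations within groups, in python 3.11.15 with scipy 1.17.1. Intervals are 95% intervals of the edgeR fit.

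Alternatives were limma voom 3.58.1, DESeq2 1.42.0, RLE normalization, library size alone, no filter, a count minimum of 10 in each library, 1 fit of all 21 libraries, a block for the replicate number, GC offsets with and without that block, a fold change over 2, and leaving out each tumor. The edgeR fit was tested on simulated counts without a GC trend, with large known changes in well-counted genes only. That test does not cover small changes, sparse genes or GC slopes. Named by rule were all 10 members, of each list the 2 highest genes per length in the control group and the gene with the smallest p in each comparison (mean log2 CPM of at least 1), the 3 called list genes with the smallest adjusted p in each direction, and the gene most alike each member. Not all genes this rule picks are printed. Tumor growth and RT-qPCR values were not used here.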

Additional observations from a re-analysis of the deposited data

Results flagged for a closer look

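SNAI2 in control tumor 4 was the lowest of its group at -1.88 log2 CPM (2 counts), with the nearest control tumor at -0.85. The gap was 0.574 of the range of the group, above the 95% limit of Dixon's test for 7 samples. It was 1 of 30 groups examined, where chance gives about 1.5.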

How the results depend on the processing

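The 10 genes gave 379 values under the alternatives other than leaving out a tumor, of which 352 kept their direction and their side of the threshold, 4 (all FN1 in r1-r4) lost the call and 23 changed sign. Precision by counting was lowest for SNAI2, ZEB2 and SNAI1, which had at most 43 counts in a tumor. No cause of a changed value was tested.

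Called genes in r1-r4 against control numbered 3323, and 683 with GC offsets, 68 with GC offsets and the replicate block, 1406 with a fold change over 2, and between 1835 (without r4) and 3957 when 1 tumor was left out, with 1875 without r3. Against control, the Oxy210 group had 0, with 92 by DESeq2, 11 without a filter and 2 with the replicate block. Between the compounds there were 0, with 14 by DESeq2, 1 without a filter, 1 with all libraries in 1 fit, 1 with GC offsets and 1 with GC offsets and the replicate block. Counts between groups did not leave 0 when 1 tumor was left out in the comparisons of 7 with 7.

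FN1 in r1-r4 lost its call with limma voom (log2 fold change 0.61, adjusted p = 0.0635), GC offsets (0.51) and, with replicate numbers as a block, at 0.66 without and 0.47 with GC offsets. Tumors with the same number did not deviate together (0 of 4 pairs in r1-r4 and control, 0, 3 and 1 of 7 in the other comparisons correlated over 0.1, and 0 correlated best with its own number), so the block pairs only numbers. CDH2 with TJP1 fell from an r of 0.69 to 0.54 with the GC trend removed.

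In r1-r4 against control the log2 fold change turned to 0.068 for ZEB2 with the replicate block, to 0.18 for SNAI1 with GC offsets and the block, and to -0.019 for TJP1 with GC offsets. Over all Oxy186-treated samples against control, ZEB2 turned to -0.0011 (limma voom), -0.017 (block), -2.84e-05 (GC offsets) and -0.079 (GC offsets and block), and TJP1 to 0.0047 (DESeq2 and RLE) and 0.014 (library size alone). Between the compounds ZEB1 turned to -0.0053 (limma voom), -0.018 (library size alone), -0.0034 (count minimum of 10), -0.0094 (block), -0.0041 (GC offsets) and -0.015 (GC offsets and block), CDH2 to 0.0089 (DESeq2 and RLE), 0.022 (no filter) and 0.012 (all libraries), and CDH1 to -0.013 (library size alone), -0.00044 (GC offsets) and -0.014 (GC offsets and block). Among list genes in r1-r4, values with GC offsets and then with the block as well were 0.31 and 0.36 for TCF3, 0.15 and 0.34 for NOTCH1, and 0.14 and 0.32 for COL1A1. CLDN4 and SPINT2 lost their calls with both, at -0.67 (adjusted p = 0.113, edgeR) and -0.49 (0.233). FSCN1 turned to 0.071 with both and FOXJ1 to 0.028 with GC offsets. TGFB1 over all Oxy186-treated samples, at -0.43, turned to 0.15 and 0.0022.

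Leaving out 1 tumor changed the sign of 44 of 516 member values, none of them called. The ranges were -0.80 to 0.17 for ZEB2 in r1-r4. Over all Oxy186-treated samples against control they were -0.18 to 0.32 for ZEB2, -0.12 to 0.014 for VIM, -0.044 to 0.14 for CDH1 and -0.073 to 0.077 for TJP1. In Oxy210 against control they were -0.43 to 0.0080 for ZEB2 and -0.044 to 0.12 for CDH1. Between the compounds they were -0.16 to 0.12 for ZEB1, -0.043 to 0.29 for SNAI1, -0.21 to 0.46 for SNAI2, -0.086 to 0.079 for CDH2, -0.065 to 0.30 for FN1 and -0.070 to 0.11 for CDH1. FN1 in r1-r4 ranged from 0.41 to 0.83.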
